A study of Mus musculus with 12 samples.

Results

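The genes described here carry cationic amino acids into the cell or make and use arginine. The set names 8 genes (Slc7a1, Slc7a2, Slc7a3, Nos2, Arg1, Arg2, Ass1 and Asl), and 7 of them had a probe set with that symbol in the platform annotation, out of 19505 genes tested. Each of the 7 was represented by 1 probe set. Ass1 was not analysed here. Slc7a2 and Slc7a3 were chosen by their log2 differences between treated and carrier arrays, which were positive in these same 12 arrays, so their differences between treatments are given as a description with no test. The other members were chosen for their place in the pathway.

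Arginine, lysine and ornithine carry a positive charge and enter most cells through the cationic amino acid transporters of the Slc7 family. Inside the cell arginine has competing fates: nitric oxide synthases turn it into nitric oxide and citrulline, and arginases split it into urea and ornithine, the starting point of polyamines and proline. Argininosuccinate synthase (Ass1) and argininosuccinate lyase (Asl) rebuild arginine from citrulline. In macrophages and in cytokine-treated mesenchymal cells, transport through CAT-2 (the product of Slc7a2) is known to feed the inducible nitric oxide synthase encoded by Nos2.

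The 12 microarrays hold RNA of primary cardiac fibroblasts from hearts of wildtype C57BL/6J mice aged 1 to 7 days. The cells were kept for 10 to 14 days in culture, in which time they became myofibroblasts, and were then treated for 8 h with carrier solution, 40 nM sCD74 (soluble CD74, the shed part of a receptor for MIF), 8 nM MIF (macrophage migration inhibitory factor, a cytokine) or 40 nM sCD74 and 8 nM MIF together, called co-treatment below. There were 3 arrays in each of the 4 groups. Each replicate number carries a code in the sample titles that its 4 arrays share, and nothing in the labels states that arrays of one group come from separate isolations, so p-values measure the spread between these arrays only.

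Values are log2 expression values as deposited, and ± gives the SD over 3 arrays unless an SE is named. The median of the negative control probe sets averaged 7.53 over the arrays, and a gene with a mean below that over all arrays is called dim here, with no size given for its differences. The number of arrays limits the precision. Markers of fibroblasts and myofibroblasts were abundant, with a list mean (12 of 13 genes measured) of 14.9 to 15.21 per array, and those of macrophages (13 of 14 measured) lay between 12.12 and 13.68. Lymphocyte and neutrophil markers lay between 5.81 and 6.26, with 6 of 6 measured genes dim. In bulk RNA, fewer cells of a type and less RNA per cell cannot be told apart.

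Slc7a1 encodes CAT-1, the widely expressed transporter of the family. It is the one measured member with an entry in the RefSeq promoter table used here (GRCm38.p6), and its upstream windows are shown for that reason. The search had been planned for Slc7a2 and Slc7a3, which have no entry there. Each run is the 250 bases before an annotated start, on the minus strand, read 5′ to 3′, with motif matches in capitals.
Slc7a1 start 1, chr5:148399905-148400154: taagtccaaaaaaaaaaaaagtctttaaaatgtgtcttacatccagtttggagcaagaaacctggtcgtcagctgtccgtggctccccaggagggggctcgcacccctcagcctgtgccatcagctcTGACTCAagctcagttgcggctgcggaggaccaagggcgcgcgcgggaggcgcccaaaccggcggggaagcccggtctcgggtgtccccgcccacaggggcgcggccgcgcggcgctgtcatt
Slc7a1 start 2, chr5:148392816-148393065: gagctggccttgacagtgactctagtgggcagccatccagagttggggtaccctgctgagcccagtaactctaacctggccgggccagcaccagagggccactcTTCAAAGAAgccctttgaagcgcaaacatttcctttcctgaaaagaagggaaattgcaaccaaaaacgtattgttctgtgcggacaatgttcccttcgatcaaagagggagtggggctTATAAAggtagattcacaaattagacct

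The motifs searched, on both strands of these windows, were those of NF-kappaB, AP-1, GAS and ATF4 and the letters TATAAA. The capitals of the first window mark a match to the AP-1 motif TGANTCA, whose first base lies 123 bases before the start, and 6.75% of the 32851 windows of that length in the table hold such a match. Those of the second mark a match to the STAT motif TTCNNNGAA (GAS, in 7.02% of windows) 146 bases before the start and the letters TATAAA (in 12.4% of windows) 28 bases before it. These matches do not overlap each other. The NF-kappaB motif and the ATF4 composite motif TGATGNAAN, held by 7.25% and 3.44% of windows, had no match in either window. A match describes the letters only and is not a measured binding site.

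Slc7a2, which encodes CAT-2, was lowest with carrier, at 10.44, 10.28 and 10.08 in replicates 1, 2 and 3. The sCD74 arrays stood at 10.81, 10.81 and 10.8 and the MIF arrays at 10.57, 11.14 and 11.07. The co-treated arrays stood at 10.95, 11.03 and 10.99. Each of the 9 treated arrays lay above each of the 3 carrier arrays, a pattern that 0.236% of all genes showed. Because this gene was picked for its rise with treatment on these same arrays, the pattern is a description only. For single treatments such a separation upward was found in 2.51% (sCD74), 3.64% (MIF) and 4.52% (co-treatment) of all genes. The group means were 10.27 ± 0.18, 10.8 ± 0.01, 10.93 ± 0.31 and 10.99 ± 0.04 (SD, n = 3), in the order carrier, sCD74, MIF and co-treatment. MIF overlapped with sCD74 and with co-treatment. With 3 arrays in each group, such an overlap cannot show whether these neighbours in the order differ. The co-treated arrays all lay above the sCD74 arrays, as in 3.95% of all genes.

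The differences of Slc7a2 from carrier were +0.54 ± 0.15 (SE) with sCD74, +0.66 ± 0.15 with MIF and +0.73 ± 0.15 with co-treatment. These comparisons share the 3 carrier arrays. Within replicate numbers 1, 2 and 3 the difference was +0.37, +0.53 and +0.71 with sCD74 and +0.52, +0.76 and +0.91 with co-treatment, so it was positive in 3 of 3 pairs of each. With MIF alone the pair of number 1 differed by +0.13, against +0.86 and +0.99 in numbers 2 and 3. The difference under co-treatment was smaller than the sum of the single ones by 0.47 ± 0.22 (SE), given here as a value only.

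Slc7a3 encodes CAT-3, best known from brain and embryo, and its probe set lay near the negative controls. The carrier arrays read 7.66, 7.39 and 6.61 and the sCD74 arrays 8.49, 7.8 and 7.59. Those with MIF read 8.6, 7.13 and 7.58 and the co-treated ones 9.24, 8.11 and 8.18. The co-treated arrays all lay above the carrier arrays, as in 4.52% of all genes, while sCD74 and MIF each overlapped with carrier. On 4 of the 12 arrays (carrier 1 and 3, sCD74 3 and MIF 2) Slc7a3 was below the negative control median of its own array. On the co-treated arrays it exceeded 83.7%, 64.1% and 64.6% of the negative control probe sets.

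In the order carrier, MIF, sCD74 and co-treatment the means of Slc7a3 were 7.22 ± 0.54, 7.77 ± 0.75, 7.96 ± 0.47 and 8.51 ± 0.63 (SD, n = 3), and neighbours in this order overlapped. The array of number 1 was the highest in each group. Against the same-numbered carrier array Slc7a3 was higher in 3 of 3 pairs with sCD74 and with co-treatment (12.4% and 14.2% of all genes) and in 2 of 3 with MIF, where number 2 was lower. Within numbers the co-treated array was also above the sCD74 array in 3 of 3 pairs and above the MIF array in 3 of 3, as in 14.8% and 12.2% of all genes. Because the carrier mean was dim, no fold is given.

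**Figure D1:**
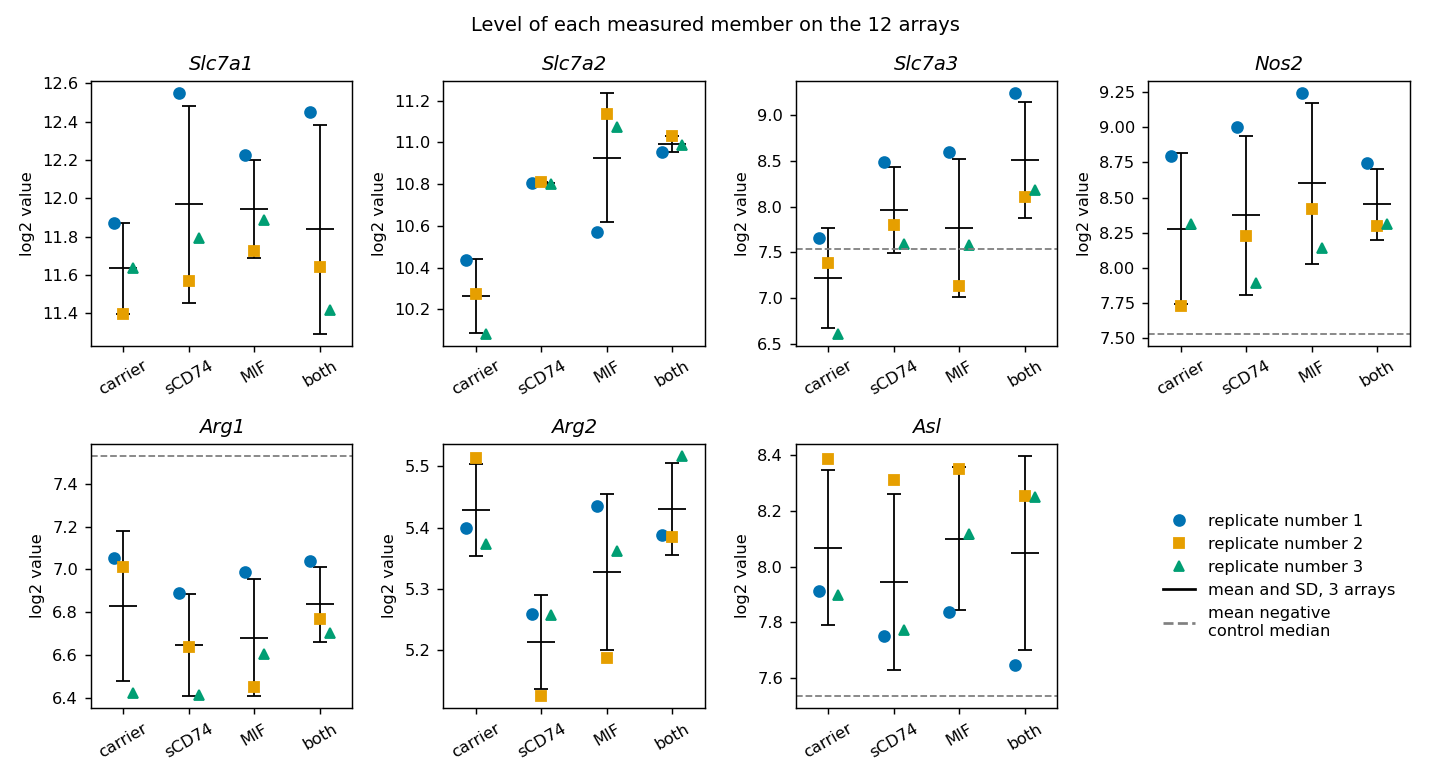
Log2 value (vertical axis) of each of the 7 measured members on the 12 arrays by treatment, with the symbol and colour giving the replicate number, the black bar the mean and SD of 3 arrays and the dashed line the mean negative control median of 7.53 (outside the range drawn for Slc7a1, Slc7a2 and Arg2). Slc7a2 was below 10.5 on the 3 carrier arrays and above 10.5 on the 9 treated ones, while in Slc7a1, Slc7a3 and Nos2 the arrays of number 1 were the highest of each group.

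Slc7a1 was compared across the same groups to see how the general transporter behaved beside its inducible relative. The carrier arrays read 11.87, 11.4 and 11.64 and those with sCD74 12.55, 11.57 and 11.79. The MIF arrays read 12.23, 11.72 and 11.89 and the co-treated ones 12.45, 11.64 and 11.42. The groups overlapped throughout. The differences from carrier were +0.34 ± 0.29 (SE) with sCD74, +0.31 ± 0.29 with MIF and +0.20 ± 0.29 with co-treatment. None passed limma's test with Benjamini-Hochberg adjustment (adjusted p at least 0.999). Within numbers, Slc7a1 was higher than carrier in 3 of 3 pairs with sCD74 and with MIF, a pattern of 12.4% and 13.7% of all genes, and in 2 of 3 with co-treatment.

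Nos2, which encodes the inducible nitric oxide synthase, read 8.8, 7.73 and 8.31 on the carrier arrays and 9.0, 8.23 and 7.89 on those with sCD74. The MIF arrays read 9.24, 8.42 and 8.14 and the co-treated ones 8.74, 8.3 and 8.31. The groups overlapped, with means of 8.28 ± 0.54, 8.37 ± 0.57, 8.6 ± 0.57 and 8.45 ± 0.25 (SD, n = 3). Its differences from carrier were +0.09 ± 0.34 (SE), +0.32 ± 0.34 and +0.17 ± 0.34, and none passed. On 11 of 12 arrays Nos2 was above the negative control median of the array, and at most above 82.7% of the negative control probe sets.

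The arginases, which compete with Nos2 for arginine, were below the negative control median on 12 of 12 arrays. Arg1, the cytosolic enzyme known from liver and from alternatively activated macrophages, ranged from 6.41 to 7.05, above 21.9% to 42.4% of the negative control probe sets. Arg2, the mitochondrial enzyme, ranged from 5.13 to 5.52, above 8.75% to 15.5% of them. The values of Arg2 with sCD74 (5.26, 5.13 and 5.26) all lay below those with carrier (5.4, 5.51 and 5.37), as in 2.71% of all genes. They also all lay below those with co-treatment (5.39, 5.39 and 5.52), as in 3.95% of all genes. At these levels the probe sets give no size for a difference, and neither arginase passed the test in any comparison of treatments.

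Asl, which releases arginine from argininosuccinate, read 7.91, 8.39 and 7.9 on the carrier arrays and 7.75, 8.31 and 7.77 on those with sCD74. The MIF arrays read 7.84, 8.35 and 8.12 and the co-treated ones 7.65, 8.25 and 8.25. The groups overlapped, and the differences from carrier were -0.12 ± 0.22 (SE), +0.03 ± 0.22 and -0.02 ± 0.22. Asl was lower than the same-numbered carrier array in 3 of 3 pairs with sCD74, against 13% of all genes, and higher in 1 of 3 pairs with MIF and with co-treatment. On the sCD74 array of replicate 3 Asl was below the negative control median of its array. Averaged over all arrays it exceeded 60.8% of the negative control probe sets, against 68.1% for Nos2 and 56.6% for Slc7a3.

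In limma's test, 0 of the 5 members not picked for a rise passed for sCD74, for MIF or for co-treatment against carrier. The share of all genes that passed was 0% in each of these comparisons, and 350, 653 and 780 of 19505 genes had an unadjusted p under 0.05 (1.79%, 3.35% and 4%), against 0 of the 5 members. With the replicate number as a block 0 of the 5 passed as well. In that limma fit 4.19%, 6.43% and 8.23% of all genes had an unadjusted p under 0.05, and among the 5 members Slc7a1 with sCD74 alone did (+0.34 ± 0.15, SE). In the comparisons of co-treatment with each single protein, of MIF with sCD74, and of co-treatment with the sum of the single differences, 0 of the 5 passed too.

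**Figure D2:**
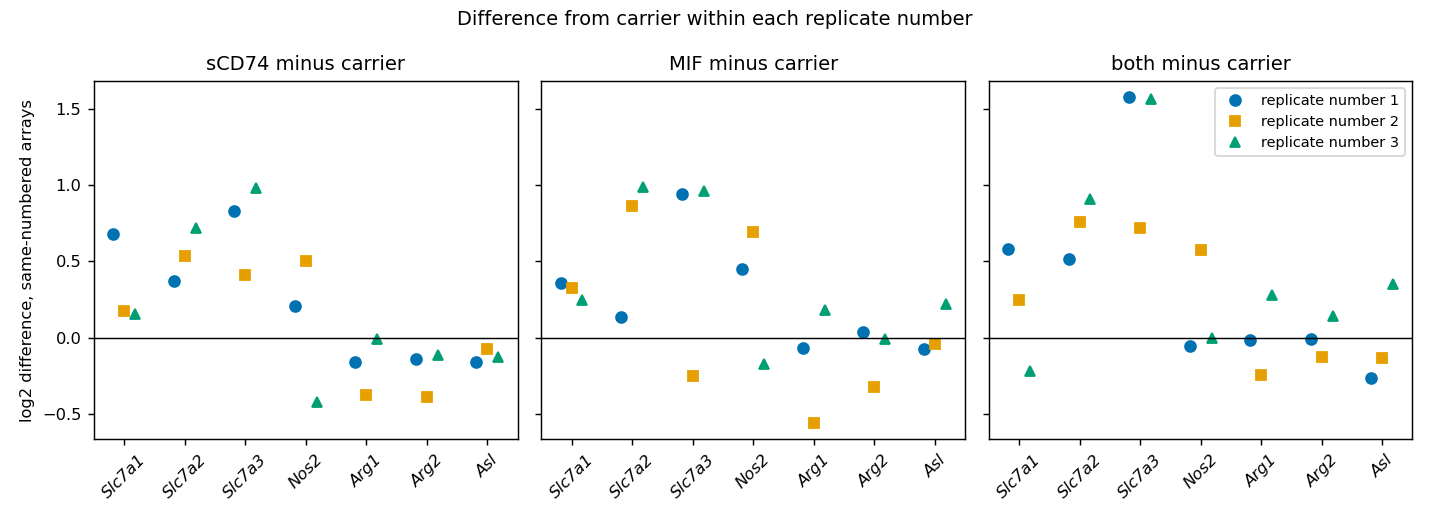
Log2 difference between a treated array and the carrier array of the same replicate number (vertical axis) for the 7 measured members, with a panel for each treatment and symbols for replicate numbers. Slc7a2 lies above 0 in all 9 differences and Slc7a3 in 8 of 9, while Nos2 and Asl lie on both sides of 0 in at least 2 of the panels; values of Slc7a3, Arg1 and Arg2 near or below the negative controls give no fold.

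The comparison of replicate numbers was not used to choose any member. The 4 arrays of each number share a code, so its p-values measure the spread between arrays and not between codes. With the 4 group means in the fit, 5 of the 7 measured members (71.4%) passed limma's test of number 1 against the mean of numbers 2 and 3, against 16.4% of all 19505 genes (7.03% higher and 9.39% lower). Higher in number 1 were Nos2 (+0.78 ± 0.13, SE, adjusted p = 0.00158), Slc7a1 (+0.64 ± 0.11, adjusted p = 0.00216), Slc7a3 (adjusted p = 9.4e-04) and the dim Arg1 (adjusted p = 0.0278). No size is given for Slc7a3, whose means in numbers 2 and 3 lay at the level of the negative controls. Asl was lower (-0.38 ± 0.10, adjusted p = 0.0213). Slc7a2 did not pass, at -0.08 ± 0.11 (adjusted p = 0.67), and neither did Arg2 (adjusted p = 0.854).

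The levels behind these calls were 12.27 ± 0.30 in number 1 (SD, n = 4), 11.58 ± 0.14 in number 2 and 11.68 ± 0.20 in number 3 for Slc7a1, and 8.5 ± 0.65, 7.61 ± 0.43 and 7.49 ± 0.65 for Slc7a3. For Nos2 they were 8.95 ± 0.23, 8.17 ± 0.31 and 8.16 ± 0.20. The 4 arrays of number 1 all lay above the other 8 for Nos2, as in 4.1% of all genes. Asl stood at 7.79 ± 0.12, 8.33 ± 0.06 and 8.01 ± 0.21. In Asl the arrays of number 3 also lay below those of number 2, as in 4.94% of all genes, with a difference of -0.32 ± 0.12 (SE) that did not pass (adjusted p = 0.225). Of the 7 members 0 passed for number 3 against number 2, where 1.15% of all genes did and 1 member, Asl, had an unadjusted p under 0.05 (14.2% of all genes).

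The calls for Slc7a1, Slc7a3 and Nos2 held in each of 18 alternative fits, with adjusted p between 1.4e-04 and 0.0183, 1.2e-04 and 0.0325, and 3.2e-04 and 0.0131. Asl was lost without any of sCD74 replicate 1 (adjusted p = 0.0517), MIF replicate 1 (0.0643) or co-treated replicate 1 (0.108), over a range of 0.00896 to 0.108. Arg1 passed in 10 of 17. It was lost after quantile normalization once more (adjusted p = 0.0647) and when a single array was left out in 6 cases: carrier replicate 1 (0.0694), carrier replicate 3 (0.0543), sCD74 replicate 1 (0.0861), MIF replicate 1 (0.0948), co-treated replicate 1 (0.0643) and co-treated replicate 2 (0.0527), over a range of 0.0127 to 0.0948. Without sCD74, MIF or co-treated replicate 1 the count of members was 3.

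Cell type markers differed between the same arrays. Macrophage markers were lower in number 1 in 13 of 13 measured genes, each past the test, with a median log2 difference of -1.04, and their list mean was 12.12 to 12.53 in number 1 against 12.96 to 13.68 in numbers 2 and 3. Of 10 measured endothelial markers 7 passed as higher and 1, Vwf, as lower, with a median of +1.59, and the list mean was 10.63 to 10.71 in number 1 against 8.91 to 9.75. Fibroblast markers passed as higher in 2 of 12 genes (Tagln and Acta2, contractile genes of myofibroblasts) and as lower in 0, and lymphocyte and neutrophil markers in 0 of 6. Cardiomyocyte markers passed as higher in 3 of 8, but their list mean was lowest in number 3 (8.27) and higher in number 2 (9.85) than in number 1 (9.67), and 5 of 8 passed as lower in number 3 than in number 2. Nos3, the endothelial nitric oxide synthase, also passed as higher (adjusted p = 7.4e-05) but was dim. Il6, a cytokine made by activated fibroblasts and macrophages, was higher by 1.38 ± 0.10 (SE, adjusted p = 3.9e-06). Other genes of classical macrophage activation went both ways in limma's test. Tnf (adjusted p = 0.00116), Cxcl10 (0.00637) and the dim Acod1 (0.00234) passed as lower in number 1, and the dim Ptgs2 (0.0482) as higher. The part of these cell types in the differences of Slc7a1, Slc7a3, Nos2 and Asl was not tested.

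Some other genes of the pathway passed in the same comparison, and their counts stand beside the 16.4% of all genes that did. Slc7a7, the light chain of a cationic and neutral amino acid exchanger that is prominent in macrophages, was lower in number 1 by 0.99 ± 0.09 on the log2 scale (SE, adjusted p = 2.0e-05), with means of 9.96 in number 1, 11.14 in number 2 and 10.74 in number 3. Slc66a1, which carries cationic amino acids out of lysosomes, was lower by 0.91 ± 0.16 (adjusted p = 0.00188). Of 12 measured genes of cationic transport outside the set these were the only 2 that passed, a share near that of all genes. Gatm and Gamt, which make creatine from arginine and glycine, were lower by 1.27 ± 0.15 (adjusted p = 1.0e-04) and 0.84 ± 0.11 (adjusted p = 3.4e-04). In their list of 9 measured genes of proline, creatine and urea formation these were the 2 that passed as lower, and Aldh18a1, which starts proline synthesis from glutamate, passed as higher (+0.39 ± 0.11, adjusted p = 0.0284). Among nitric oxide synthase partners 2 of 12 passed as higher, Nos3 and Ddah1, which degrades methylarginine inhibitors of the synthases (+0.58 ± 0.11), and 4 as lower: Pts, Spr and Qdpr, which make or recycle the cofactor tetrahydrobiopterin, and Nostrin. Neutral and anionic transporters passed as lower in 4 of 12 genes and as higher in 1, with Slc43a2, a carrier of large neutral amino acids, lower by 1.89 ± 0.17 and Slc7a8, the light chain of another such exchanger, by 1.35 ± 0.16. Polyamine genes passed as lower in 2 of 9 and as higher in 0, and methyltransferases and sensors as lower in 2 of 11 and as higher in 1. Classical activation genes passed as higher in 2 of 7 and as lower in 3, and alternative activation genes as higher in 1 of 9 and as lower in 2.

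**Figure D3:**
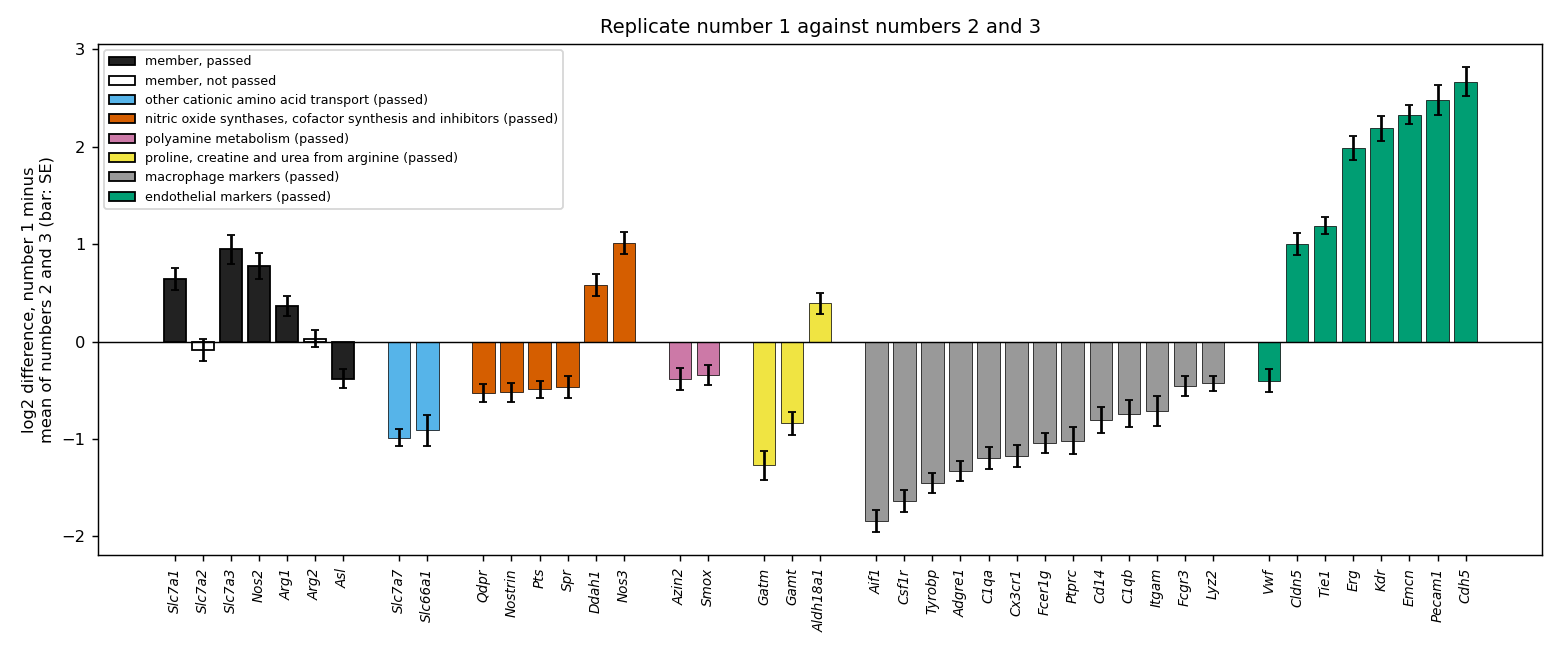
Log2 difference between number 1 and the mean of numbers 2 and 3 (vertical axis, error bars SE of the limma fit) for the 7 members and for those genes of 4 pathway lists and 2 marker lists that passed. Black member bars passed the test and white ones did not; Slc7a1 and Nos2 are higher by 0.64 and 0.78, while macrophage markers are lower and all shown endothelial markers but Vwf higher; Arg1, Arg2, Nos3 and Cldn5 are dim and Slc7a3 is at the negative controls in numbers 2 and 3, so the heights of these bars are not measured sizes.

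The further steps of arginine use were followed with treatment through gene lists. No listed gene passed against carrier in any of the 3 comparisons, with or without the replicate block, so the values below are descriptions. Of all genes, 50%, 52.7% and 50.3% lay above carrier with sCD74, MIF and co-treatment. In polyamine metabolism 6 of 9 measured genes were above carrier with co-treatment, with a median difference of +0.06 against +0.0014 for all genes, and 2 had an unadjusted p under 0.05, against 4% of all genes. Srm, the spermidine synthase, read 12.52, 12.68 and 12.79 with carrier and 13.28, 12.97 and 12.9 with co-treatment, without overlap (+0.39 ± 0.16, SE, adjusted p = 0.999). Odc1, ornithine decarboxylase and the entry to polyamines, read 11.08, 11.4 and 11.08 against 11.9, 11.51 and 11.49 (+0.45 ± 0.20, adjusted p = 0.999). Oaz2, another gene of this list, read 10.16, 10.98 and 10.96 against 11.04, 11.04 and 11.25 (+0.41 ± 0.20, SE). Srm, Odc1 and Oaz2 were higher on each co-treated array than on any carrier array, as were 4.52% of all genes. Sat1, Sms and Smox had means below carrier.

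Among the 12 other cationic transport genes 8 were above carrier with co-treatment, with a median of +0.06, and 6 were dim. Slc7a6, the other light chain of the exchanger, stood at +0.38 ± 0.24 (SE). Nitric oxide synthases and their partners had 7 of 12 above carrier and a median of +0.06, with Gch1, the first enzyme of tetrahydrobiopterin synthesis, at +0.32 ± 0.22 with co-treatment from a carrier mean of 9.35 ± 0.24 (SD, n = 3). Its other group means were 9.2 ± 0.25 under sCD74, 9.8 ± 0.47 under MIF and 9.67 ± 0.18 under co-treatment. Genes of proline, creatine and urea formation had 5 of 9 above carrier and a median of +0.01. Arginine methyltransferases and sensors had 9 of 11 and +0.19, as in Prmt5 (+0.19 ± 0.11), and neutral and anionic transporters 8 of 12 and +0.08, as in Slc1a5 (+0.37 ± 0.20) and Slc7a5 (+0.35 ± 0.20).

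Genes known to accompany Nos2 in classically activated macrophages exceeded the carrier mean in 7 of 7 measured genes with MIF and with co-treatment. With sCD74 5 of 7 did. The list medians were +0.80, +0.45 and +0.16, in the order MIF, co-treatment and sCD74. That with MIF is the value of Cxcl9, whose carrier mean was 7.41, and that with co-treatment the value of the dim Ptgs2. Neither is a measured size. The rise was uneven. With co-treatment Il1b differed from carrier by +0.36 ± 0.34 (SE) and Il6 by +0.28 ± 0.57, and the mean of Cxcl9 was 7.45 against 7.41 with carrier. Cxcl10, a chemokine, read 6.88, 6.94 and 7.48 on the carrier arrays and 7.79, 9.96 and 8.38 on the co-treated ones, without overlap. Tnf read 6.87, 8.31 and 7.38 against 7.74, 9.08 and 9.01, with overlap. Both carrier means were below 7.53, and Acod1 and Ptgs2 were dim by their means over all arrays, with Acod1 below the negative control median of the array on 9 of 12 and Ptgs2 on 12 of 12. In limma's test 3 of 7 genes of this list had an unadjusted p under 0.05 with MIF, against 3.35% of all genes. With co-treatment 3 of 7 did, against 4%. These were Il1b, Cxcl10 and the dim Ptgs2 with MIF, and Cxcl10 and the dim Acod1 and Ptgs2 with co-treatment. Nos2 had such a p in neither. Genes that accompany Arg1 in alternatively activated macrophages had 4 of 9 above carrier with MIF and with co-treatment, with medians of -0.06 and -0.09. Of these 9 genes 5 were dim, and the median with MIF is the value of the dim Cd163, so it is not a measured size. Macrophage markers themselves were above carrier in 2 of 13 genes with sCD74, 2 of 13 with MIF and 3 of 13 with co-treatment. The medians were -0.33, -0.19 and -0.17.

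**Figure D4:**
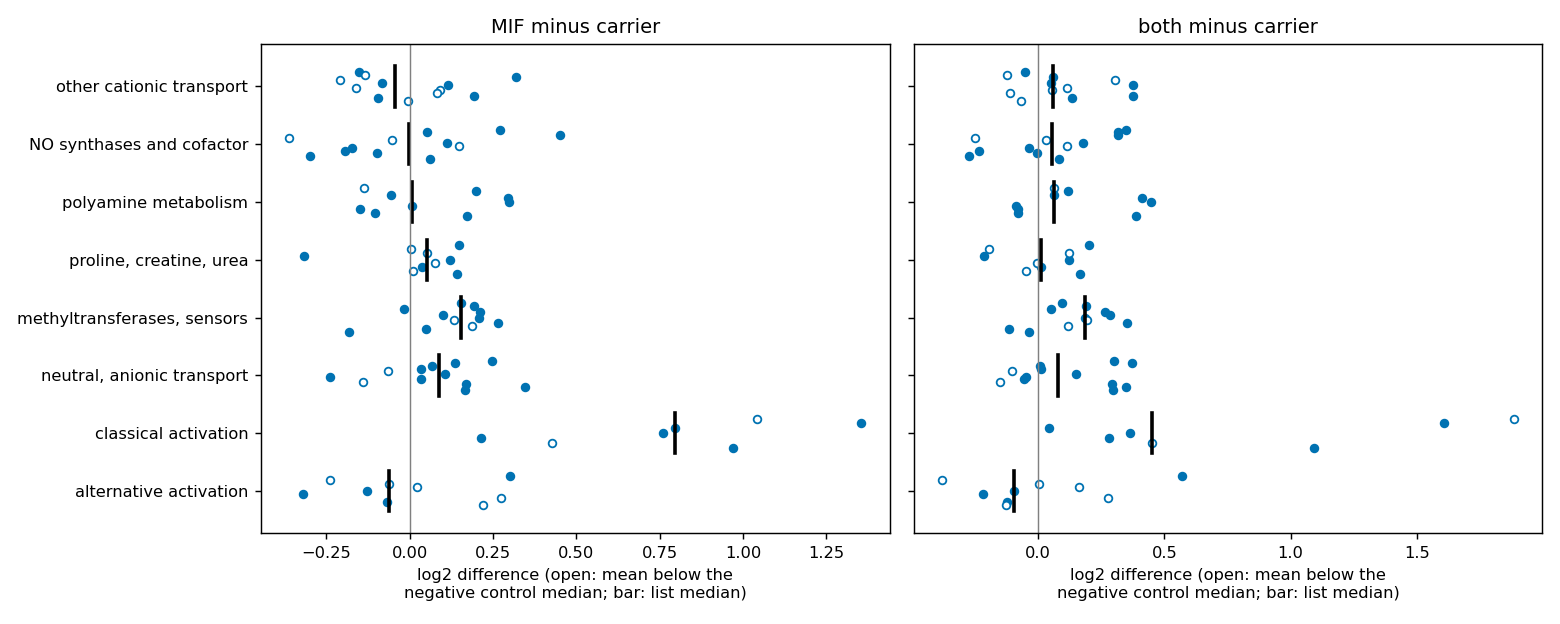
Log2 difference from carrier (horizontal axis) of each measured gene of 8 lists around arginine and macrophage activation, with MIF on the left and co-treatment (both) on the right; filled points are genes with a mean above 7.53, open points dim genes and black bars list medians. The medians of the 6 metabolic lists lie between -0.04 and +0.19. Those of the classical activation genes lie at +0.80, the value of Cxcl9, whose carrier mean was 7.41, and +0.45, the value of the dim Ptgs2. Neither of these 2 is a measured size.

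To describe the pattern of each member, the mean of each replicate number was subtracted and the 12 arrays were correlated with 10850 other genes above the negative control median, as a description with no p, since the arrays share treatments. The subtraction leaves the treatment differences in place, including the rise for which Slc7a2 and Slc7a3 were picked. The genes most like Slc7a2 were Vcam1 (a leukocyte adhesion molecule, r = 0.951), Grk4 (a receptor kinase, 0.926), Cxcl1 (a neutrophil chemokine, 0.895), Slco3a1 (an organic anion transporter, 0.873) and Serpina3i (a serpin, 0.871). Those most like Slc7a3 were Serpinf1 (a secreted serpin, r = 0.974), Ogg1 (a DNA repair glycosylase, 0.957), the glutamine transporter Slc1a5 (0.952), Gemin6 (0.928) and Arhgef25 (0.923). Neither list held a gene of the other, and Slc7a2 and Slc7a3 correlated with each other at r = 0.648.

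Vcam1 read 15.17, 15.09 and 15.09 with carrier and 15.24, 15.59 and 15.78 with MIF, so that number 1 differed least, as it did for Slc7a2. Vcam1 was chosen for its correlation with Slc7a2 on these same arrays, so this likeness follows from the choice. Serpinf1 read 12.03, 12.1 and 11.81 with carrier and 12.81, 12.38 and 12.67 with co-treatment, with MIF between 12.08 and 12.61. The genes most like Slc7a1 were Tcp11l1 (r = 0.936), Ro60, Hnrnpr, Rai14 and Trim59, those most like Nos2 were Sgce (0.966), Ddit4l, Zcchc14, Mbd2 and Adamts20, and those most like Asl were Pmm1 (0.94), Med19, Camsap3, Chst8 and Dcps. Within the set the highest correlation was that of the dim pair Arg1 and Arg2 (r = 0.855), and Slc7a1 and Slc7a2 stood at 0.516.

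**Figure D5:**
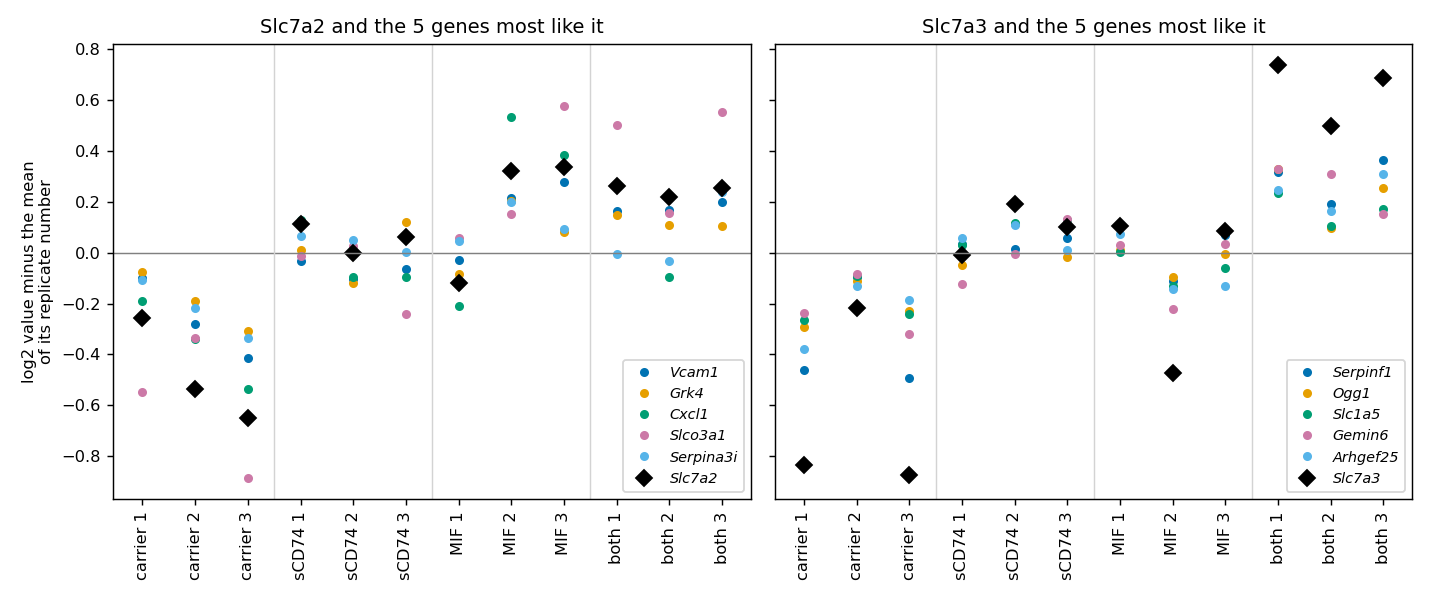
Log2 value minus the mean of its replicate number (vertical axis) on each of the 12 arrays for Slc7a2 (left, black diamonds) and Slc7a3 (right, black diamonds) and the 5 genes most like each (coloured points), with co-treated arrays marked both. Slc7a2 is lowest on the 3 carrier arrays and low on the MIF array of number 1, while Slc7a3 is highest on the 3 co-treated arrays and low on carrier and on the MIF array of number 2.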

How the data were processed

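The values are log2 expression values that the authors deposited, 1 column per sample. Per the submitters' processing notes RMA was used, with the Transcriptome Analysis Console and the Affymetrix Expression Console, all named without version. RMA in its usual form normalizes arrays to a shared distribution, which can hide a global shift; the genome build and any rescaling are not given in the sources used here. The deposited values ran from 3.08 to 18.4, with array medians of 8.01 to 8.14.

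Of 28846 probe sets 6640 were controls and 2634 had no symbol. The probe set with the highest mean stood for each of 19505 genes. Groups and replicate numbers came from the sample titles. The fit, by lmFit and eBayes of limma 3.58.1 (R 4.3.3), was on 4 group means over all 12 arrays, and with group and replicate number for the comparison of numbers, two-sided, with Benjamini-Hochberg adjustment over all genes at 0.05. The script was tested on simulated data. Same-numbered arrays deviated together from their group means (r between 0.0971 and 0.647, over 0.1 in 17 of 18 pairs), and their titles share a code, and the fit with the number as a block was run on that basis as a paired alternative.

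The members and lists were chosen with earlier results of these data known. Named genes are the members, up to 6 genes of each list called in any comparison and the 4 with the smallest p under co-treatment, and the 5 genes most correlated with each member above the negative controls; which of these the text gives with values was decided after seeing them. Alternatives were the block, trend and robust variance, centring on array medians, quantile normalization once more, all probe sets with a symbol, genes above the negative controls, no group term, and leaving out arrays or numbers.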

Additional observations from a re-analysis of the deposited data

Results flagged for a closer look

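Arg1 was flagged for the effect of sCD74 without and with MIF, by a rule that looks for opposite signs in all pairs. Against the same-numbered array, sCD74 alone lay below carrier in 3 of 3 pairs (as in 13% of all genes) and co-treatment above MIF in 3 of 3 pairs (12.2%). The computed difference between these effects was 0.34 on the log2 scale. It did not pass limma's test (adjusted p = 1). Arg1 was below the negative control median on 12 of 12 arrays, so this value is not a measured size.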

How the results depend on the processing

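The comparisons of treatments held 0 called genes in all fits but a few: with the replicate block 1 gene was called for MIF present against absent, and with the replicate block, trend and robust variance 1 for MIF, 6 for co-treatment against carrier, 2 for co-treatment against sCD74 and 3 for MIF present against absent (0 to 1 when single arrays were left out). The block changed the call of no tested member. For number 3 against number 2 the 224 calls became 540 among genes above the negative control median and 734 with trend and robust variance, and 59 to 227 when single arrays were left out. For number 1 the 3204 calls ranged from 2079 (without sCD74 replicate 1) to 3063 when single arrays were left out, and the members called from 3 to 5; the other fits gave 3174 (quantile normalization once more) to 3786 calls (trend and robust variance). The causes were not tested. Uncalled differences changed sign: that of Slc7a2 for number 1 was 0.0014 after quantile normalization once more and ranged from -0.20 to +0.066 when arrays or numbers were left out. The ranges from carrier were, for Asl, -0.31 to +0.039 with sCD74, -0.090 to +0.20 with MIF and -0.20 to +0.18 with co-treatment, for Nos2 -0.22 to +0.35 with sCD74 and -0.10 to +0.43 with co-treatment, and for Slc7a1 -0.10 to +0.41 with co-treatment. Signal over background limits Arg1, Arg2 and Slc7a3, and Asl and Nos2 also lay close to the negative controls.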
